A study of Mus musculus with 15 samples.

Results

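The genes described here are 36 genes of peroxisome proliferator-activated receptor alpha (PPAR alpha), fatty acid oxidation and ketone body formation in mouse liver. They were chosen by name as the receptor and genes of the pathway it controls, and all rows of the gene table with one of these symbols were taken. The choice was made with earlier results of these data known. Each symbol was found once, so the set is 36 of 45861 genes in the table. All 36 passed the filter on low values, at least 1 FPKM in at least 3 libraries, which kept 13840 genes. FPKM relates the fragments of a gene to the length of its transcript and the size of the library, and so is a level per length.

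PPAR alpha is a nuclear receptor that fatty acids activate and that binds DNA together with a retinoid X receptor. In hepatocytes it is known as the main inducer of fatty acid use during fasting, when fatty acids released from fat tissue are oxidised in mitochondria and peroxisomes and the acetyl-CoA formed feeds ketone body synthesis. Long chains are first activated to acyl-CoA, enter mitochondria as carnitine esters and are shortened in repeated cycles, very long chains are shortened in peroxisomes, and the ends of some chains are hydroxylated by Cyp4a enzymes in the endoplasmic reticulum.

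RNA of snap-frozen livers from C57BL/6 mice was sequenced in 15 libraries. Wild-type mice (WT) and mice lacking Fkbp5 (KO), the gene of an HSP90 co-chaperone that restrains the glucocorticoid receptor, were given a control liquid diet, or a liquid diet raised to 5% ethanol and kept there for 10 days. Ethanol-fed mice then received 5 g/kg ethanol by gavage and control mice maltose, and livers were taken 9 hours later, a model of drinking followed by a binge. There were 4 libraries of each group other than KO on the control diet, which had 3. The labels give the knockout as Fkbp5-/- and name no promoter or Cre line. The title of WT ethanol replicate 4 reads WT and its genotype entry Fkbp5 knockout. It was kept as WT, and its Fkbp5 level was 45.2 FPKM. The question put to the groups is how the pathway's RNA differed between ethanol and control livers, and whether loss of Fkbp5 altered that difference.

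Fkbp5 stood at 15.2, 9.96, 5.77 and 3.27 FPKM in WT control and at 54.5, 23.9, 47.9 and 45.2 FPKM in WT ethanol. In KO control it stood at 1.07, 1.56 and 0.351 FPKM, and in KO ethanol at 5.41, 4.97, 3.20 and 2.45 FPKM. KO lay below WT within each diet without overlap, with two-sided exact permutation p = 0.0571 on the control and p = 0.0286 on the ethanol diet. Only the value on the ethanol diet is the smallest that its group sizes allow. The libraries held an estimated 23200000 to 29900000 fragments, and 11701 to 13112 genes reached 1 FPKM. KO control replicate 1 stood apart, with 183764 FPKM on Rn7s1, a small cytoplasmic RNA listed at 0 elsewhere, and 59.3% of its summed FPKM in its 10 highest genes. Of 8 hepatocyte markers 7 were in the table, and their summed level ran from 11065 to 29320 FPKM. The lowest sum belonged to KO ethanol replicate 3, where Alb was listed at 0. The labels give no sex or age. Xist stood between 63.3 and 80.2 FPKM in 7 libraries, called Xist-high here, and summed Y-linked genes between 29.2 and 37.9 FPKM in the other 8, called Y-expressing. Xist-high libraries were WT control 1 and 2, WT ethanol 2 and 4, KO control 1 and 2, and KO ethanol 3, so the classes were balanced in WT and unbalanced in KO.

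All 36 genes were detected in every library, and they differed widely in how much they varied. The 2 omega-hydroxylase genes Cyp4a10 and Cyp4a14, the 4 acyl-CoA thioesterase genes Acot1 to Acot4 and the kinase gene Pdk4 were the most variable, and the core enzymes of mitochondrial oxidation were among the steadiest. Acot3 had the widest range, 372-fold between its lowest library, WT ethanol 3 at 0.197 FPKM, and its highest, KO control 2 at 73.2 FPKM. Cyp4a14 ranged 138-fold, Cyp4a10 ranged 37.6-fold and Acot1 ranged 30.3-fold. Acads, the short-chain acyl-CoA dehydrogenase, ranged 1.53-fold, from 29.5 to 45.2 FPKM. Etfb and Etfa, the subunits of the flavoprotein that takes electrons from the acyl-CoA dehydrogenases, ranged 1.62-fold and 1.67-fold. The highest mean levels over all 15 libraries were those of the peroxisomal thiolase Acaa1b at 234 FPKM, the mitochondrial thiolase Acaa2 at 220 FPKM and Cyp4a14 at 218 FPKM. Pdk4, which shuts glucose carbon out of mitochondrial oxidation by inhibiting pyruvate dehydrogenase, had the lowest mean at 4.42 FPKM. The lowest single value, that of Acot3 in WT ethanol 3, corresponds to an estimated 14.5 fragments, and Ppara never fell below an estimated 1788 fragments. These estimates are rough, because they use the length of the isoform with the highest mean level. That isoform held 57.7% of the mean level of Acot3 and 36.3% of that of Ppara.

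**Figure D1:**
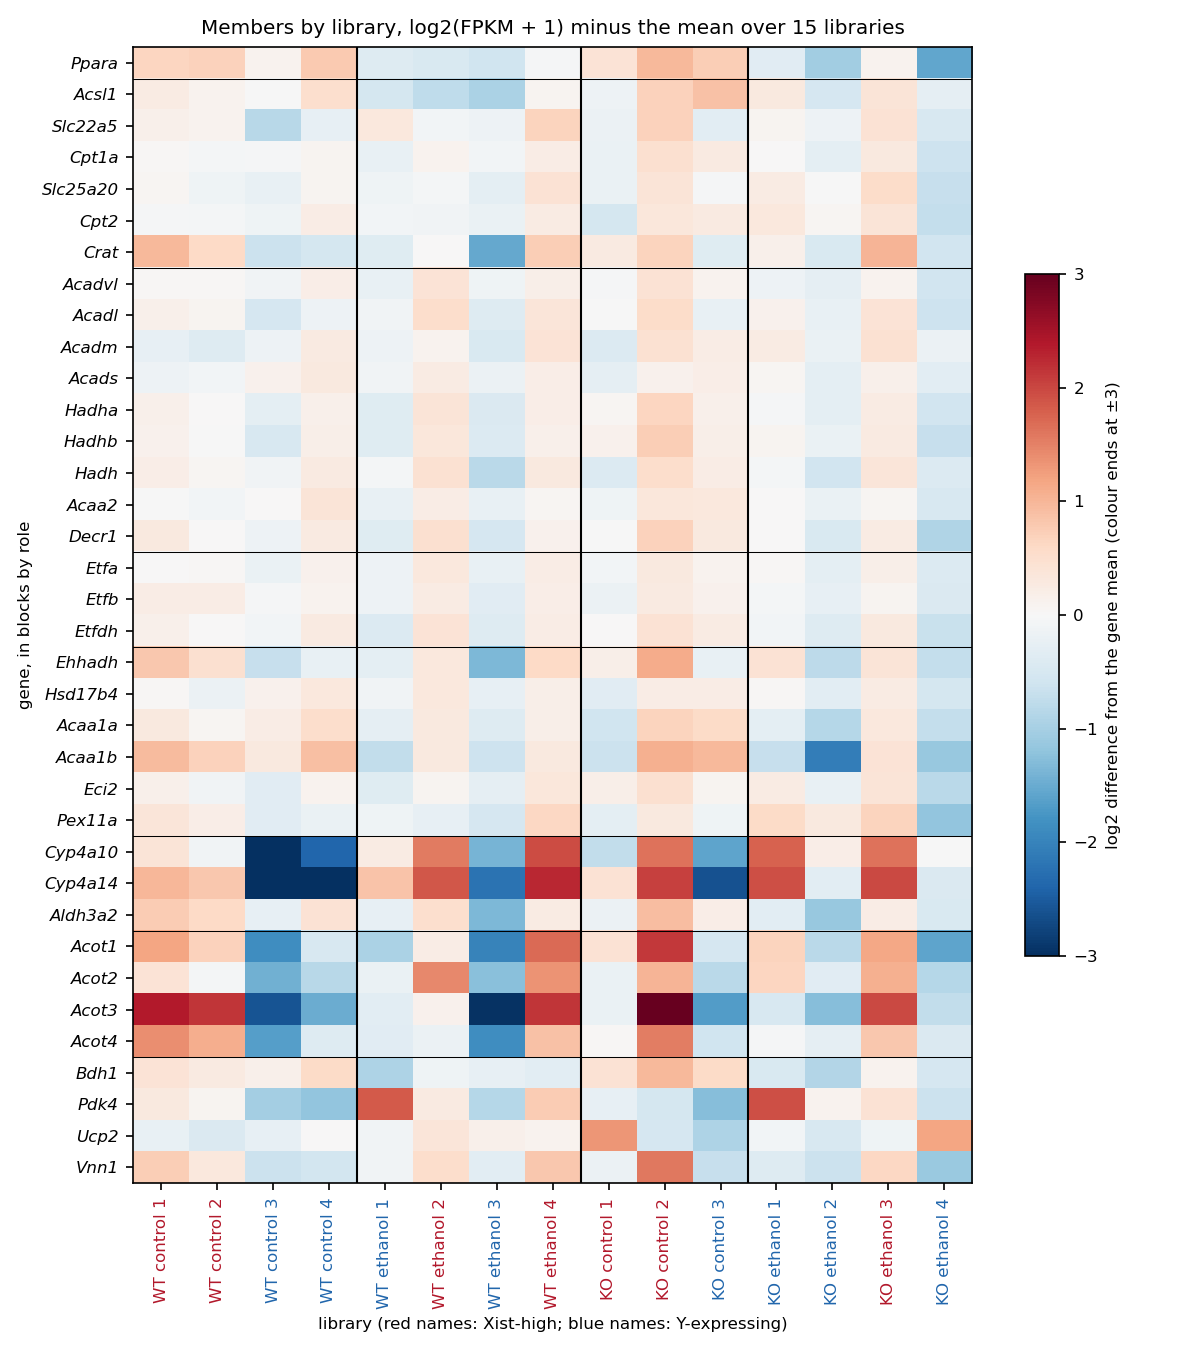
Level of each of the 36 genes (rows, in blocks by role) in each of the 15 libraries (columns, by group), as log2(FPKM + 1) minus the mean of that gene over all libraries; red library names are Xist-high and blue names Y-expressing. Cyp4a10, Cyp4a14 and Acot1 to Acot4 carry the strongest colours, blue mainly in Y-expressing libraries, and the Ppara row is lighter or blue in the ethanol libraries.

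The promoters are shown because the receptor is known to bind 2 half-sites in the same orientation separated by 1 base, and because the 4 Acot genes, neighbours on chromosome 12, moved together in the libraries described below. RefSeq promoter sequences (GRCm38.p6, 300 bases around the start site) were matched for 29 of the 36 genes, in 32 windows. Decr1, Cyp4a14, Hsd17b4, Acaa2, Crat, Vnn1 and Cyp4a10 had no entry. The full pattern, AGGNCA repeated after 1 base and searched on both strands, was in 0 of the 32 windows and in 0.381% of all 32851 windows of the same length. The half-site AGGTCA, which overlaps the copies of the full pattern, was in 18.8% of the members' windows and in 16.3% of all windows, and the 5 genes holding it were Acadm, Acadvl, Acot3, Acot4 and Cpt1a. With at most 1 mismatch to the full pattern, a search added after the exact one gave no match, 4 windows held it (12.5%, against 4.71% of all windows). Those 4 are printed 5′ to 3′ on the strand of the gene, with the 13 bases of the match in capitals, and in each the match lies on the opposite strand.
Acot4, chr12:84038358-84038378: ccgaagcaTGACCTTTGGCCG
Etfa, chr9:55512300-55512328: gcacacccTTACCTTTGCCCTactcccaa
Etfb, chr7:43443922-43443950: cctaggaaTGCCCTTTCCCCTacttctgt
Hadh, chr3:131272167-131272195: gtccatgcTGGCCTGAGTCCTggcaccgc
The 120 bases before the start site of each of the 4 thioesterase genes follow, all on the plus strand, with the half-site on the opposite strand (TGACCT) in capitals where it is present.
Acot2, chr12:83987741-83987860: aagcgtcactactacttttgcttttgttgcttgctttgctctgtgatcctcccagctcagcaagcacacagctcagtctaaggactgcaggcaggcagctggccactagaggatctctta
Acot1, chr12:84009382-84009501: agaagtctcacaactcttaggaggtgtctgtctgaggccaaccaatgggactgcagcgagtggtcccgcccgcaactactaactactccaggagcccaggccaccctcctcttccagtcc
Acot4, chr12:84038259-84038378: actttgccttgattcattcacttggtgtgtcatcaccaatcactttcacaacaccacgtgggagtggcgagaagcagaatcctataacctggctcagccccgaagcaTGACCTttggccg
Acot3, chr12:84052024-84052143: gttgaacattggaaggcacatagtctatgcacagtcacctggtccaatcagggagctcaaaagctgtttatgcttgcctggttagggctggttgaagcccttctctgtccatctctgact
Aligned over the 250 bases before the start site, different Acot genes shared between 56.7% and 65.4% of their aligned bases. The alignment allowed gaps, which these shares leave out, and no unrelated windows were aligned. Whether these windows are more alike than other promoters was therefore not tested. A match describes these letters and is not a binding site, and a missing match covers only these windows.

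In WT livers, ethanol went with lower RNA of the ketone enzyme Bdh1, and most of the 36 genes did not pass the test. Bdh1, the mitochondrial dehydrogenase that turns acetoacetate into beta-hydroxybutyrate, fell to 0.592 of its control level. It was the only call, 0 of 36 genes higher and 1 lower, beside 7.7% of all 13840 genes called (3.09% higher and 4.62% lower). The median log2 difference of the 36 genes was −0.05, and that of all genes was −0.04. The test was limma on log2(FPKM + 1) with Benjamini-Hochberg adjustment over all genes, and a call is an adjusted p under 0.05.

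Bdh1 stood at 54.1, 48.9, 45.3 and 60.7 FPKM in WT control and at 20.9, 36.8, 34.0 and 32.3 FPKM in WT ethanol. All 4 ethanol libraries lay below all 4 control libraries. The log2 difference was −0.76 (SE 0.22, limma adjusted p = 0.0499), from 52.2 ± 6.69 to 31.0 ± 7.01 FPKM (SD, n = 4 each). The call was at the threshold: it ended when any 1 library was left out other than KO ethanol 2 or KO ethanol 3, with adjusted p from 0.0333 to 0.129. It also ended with only the WT groups fitted (adjusted p = 0.0659), with no filter on low values (0.0967), with log2(FPKM + 0.1) (0.0508), with median-ratio scaling (0.0506) and with FPKM rescaled to a common sum (0.11).

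Ppara, the receptor's own gene (chr15:85734628-85806851), stood at 43.9, 45.8, 29.8 and 48.9 FPKM in WT control. In WT ethanol it stood at 21.1, 20.0, 18.0 and 27.1 FPKM, again with no overlap between the groups. Groups in which every ethanol library lay below every control library were found for 9.28% of all genes. The log2 difference was −0.93 (SE 0.30, limma adjusted p = 0.0715), which did not pass the threshold. It passed in the fit with a term for Xist-high libraries (adjusted p = 0.0475, a fit that called 11.5% of all genes) and when KO ethanol 3 or KO ethanol 4 was left out, with adjusted p from 0.0320 to 0.160 over the 15 fits. It also passed with only the WT groups fitted (adjusted p = 0.0405), with quantile normalization (0.0489) and with library weights (0.0205). In bulk liver RNA, fewer cells of a type and less RNA per cell cannot be told apart.

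Among the entry enzymes, Acsl1, the main hepatic long-chain acyl-CoA synthetase, stood at 170 ± 26.4 FPKM in WT control and 103 ± 35.2 FPKM in WT ethanol (SD, n = 4 each). Its log2 difference was −0.76 (SE 0.28, limma adjusted p = 0.109), with 3 of the 4 ethanol libraries below every control library and WT ethanol 4, at 154 FPKM, within the control range. Cpt1a, the carnitine palmitoyltransferase that controls entry into mitochondria, stood at 81.8, 76.1, 78.1 and 83.9 FPKM in WT control and at 68.4, 86.3, 74.8 and 92.8 FPKM in WT ethanol. The control libraries lay between the lower and the higher pair of ethanol libraries, and the log2 difference was 0.00 with a 95% interval from −0.41 to 0.42. The 9 mitochondrial beta-oxidation genes had log2 differences between −0.17 (Decr1, the dienoyl-CoA reductase) and 0.21 (Acadl, the long-chain acyl-CoA dehydrogenase). None of the 9 was called, and their median was −0.03.

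None of the 6 peroxisomal genes was called in WT. Acaa1b stood at 386, 319, 244 and 374 FPKM in WT control and at 118, 242, 129 and 245 FPKM in WT ethanol (log2 difference −0.91, SE 0.49, limma adjusted p = 0.262). Only the control library of 244 FPKM fell within the range of the ethanol libraries. Acaa1a and Acaa1b are close copies, so reads may be shared between them and their single levels are uncertain. Ehhadh, the peroxisomal bifunctional enzyme and a standard PPAR alpha target, stood at 97.2, 77.8, 33.8 and 47.4 FPKM in WT control and at 45.0, 69.0, 21.0 and 83.6 FPKM in WT ethanol, with wide overlap (log2 difference −0.28, limma adjusted p = 0.742).

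Cyp4a10 and Cyp4a14 had higher mean levels on ethanol in WT and were not called. Cyp4a14 stood at 224, 197, 3.86 and 11.8 FPKM in WT control and at 201, 407, 23.3 and 534 FPKM in WT ethanol. Its log2 difference was 2.15 (SE 1.40, limma adjusted p = 0.353). Cyp4a10 stood at 122, 86.6, 9.62 and 17.2 FPKM in WT control and at 111, 275, 34.8 and 362 FPKM in WT ethanol, with a log2 difference of 1.90 (SE 0.95, limma adjusted p = 0.225). In both genes the low libraries of each diet were the Y-expressing ones. These neighbours on chromosome 4 have close copies in the mouse genome, so that their single levels are uncertain. Pdk4 stood at 4.24, 3.53, 1.10 and 0.884 FPKM in WT control and at 14.2, 4.15, 1.37 and 6.25 FPKM in WT ethanol (log2 difference 0.96, SE 0.60, limma adjusted p = 0.332). Aldh3a2, which oxidises fatty aldehydes, had a log2 difference of −0.60 (SE 0.40, limma adjusted p = 0.370).

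**Figure D2:**
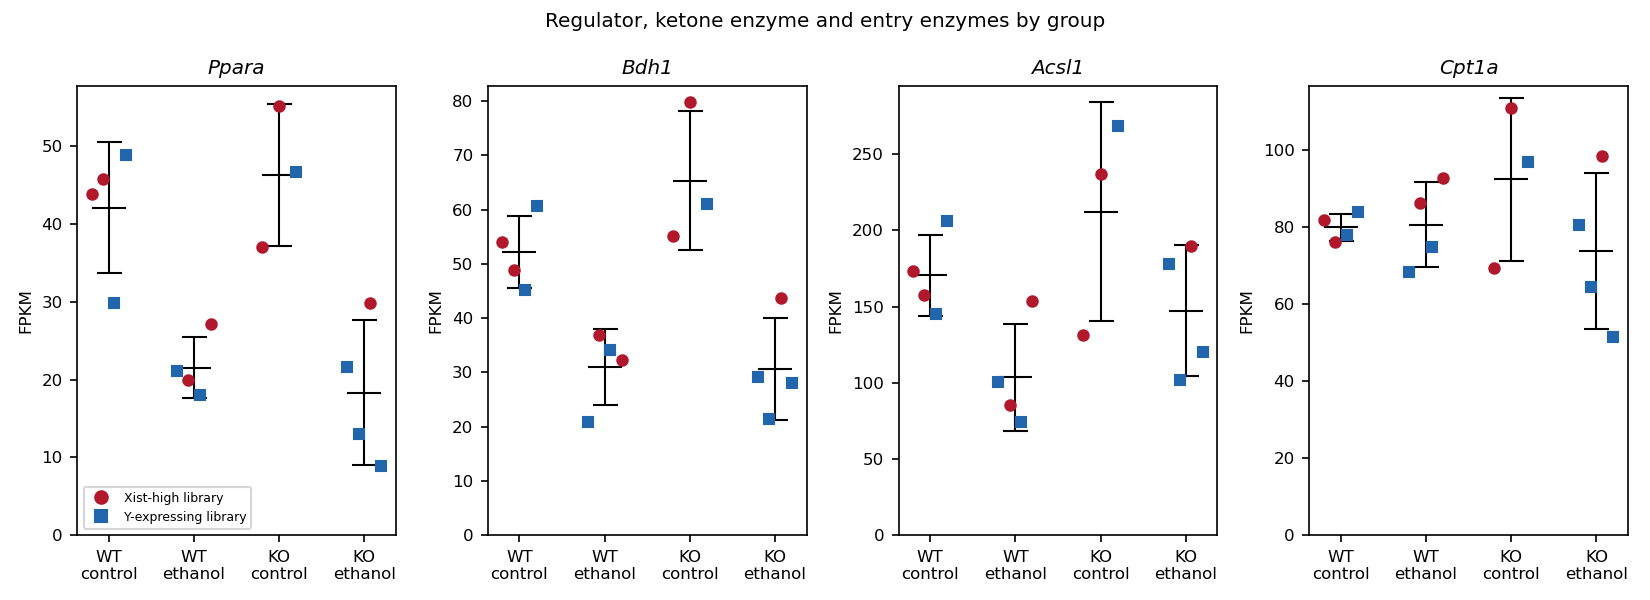
FPKM of Ppara, Bdh1, Acsl1 and Cpt1a in every library, by group, with circles for Xist-high and squares for Y-expressing libraries and bars for the mean ± SD. The WT ethanol libraries of Ppara (18.0 to 27.1 FPKM) and Bdh1 (20.9 to 36.8 FPKM) lie below the WT controls. The WT ethanol libraries of Cpt1a lie on both sides of the WT controls, 2 below and 2 above.

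In KO livers, Ppara and Bdh1 were both lower on ethanol, and none of the other 34 genes passed the test. Ppara fell to 0.376 and Bdh1 to 0.468 of the KO control level. Of the 36 genes, 0 were higher and 2 lower, beside 4.13% of all genes called (1.4% higher and 2.72% lower). Log2 differences were below 0 for 30 of the 36, with a median of −0.32 against −0.10 for all genes. The classes were unbalanced in KO, and with the term for Xist-high libraries 21 of the 36 were below 0 and 15 above, with a median of −0.12 against −0.07. The median was −0.09 without KO control 2, and it was 0.02 against 0.17 for all genes when FPKM were rescaled to a common sum. The group means of the WT and KO comparisons come from separate libraries. Both comparisons share a common estimate of the spread from all libraries, so their p values are not independent.

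Ppara stood at 37.0, 55.2 and 46.7 FPKM in KO control and at 21.6, 12.9, 29.8 and 8.82 FPKM in KO ethanol. All 4 ethanol libraries lay below all 3 control libraries, an order found for 15.2% of all genes. The log2 difference was −1.41 (SE 0.32, limma adjusted p = 0.0312), from 46.3 ± 9.11 (SD, n = 3) to 18.3 ± 9.34 FPKM (SD, n = 4). Bdh1 stood at 55.2, 79.9 and 61.1 FPKM in KO control and at 29.2, 21.5, 43.8 and 28.1 FPKM in KO ethanol, again with no overlap. Its log2 difference was −1.10 (SE 0.23, limma adjusted p = 0.0256). Both calls ended when KO control 2, KO control 3, KO ethanol 1 or KO ethanol 2 was left out, with adjusted p up to 0.124 for Ppara and 0.108 for Bdh1. When FPKM were rescaled to a common sum, in which Rn7s1 takes a large part of KO control 1, the 2 genes kept their direction at adjusted p = 0.149 and 0.207. Both calls also ended when only the KO groups were fitted (adjusted p = 0.118 and 0.0865), that of Ppara ended with no filter on low values (adjusted p = 0.0662), and both held with the term for Xist-high libraries (adjusted p = 0.0461 and 0.0353).

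The nearest other genes in KO were peroxisomal and mitochondrial oxidation enzymes. Acaa1b stood at 127, 420 and 391 FPKM in KO control and at 122, 46.2, 265 and 89.9 FPKM in KO ethanol (log2 difference −1.34, SE 0.53, limma adjusted p = 0.164). KO control 1 was low and KO ethanol 3 high, both of them Xist-high libraries, so the groups overlapped. Acadvl, the very long-chain acyl-CoA dehydrogenase, had a log2 difference of −0.40 (SE 0.19, limma adjusted p = 0.237). Decr1 had −0.60 (adjusted p = 0.243) and Acaa1a −0.60 (adjusted p = 0.297). Hadha and Hadhb, the subunits of the mitochondrial trifunctional protein, had −0.45 and −0.48 (adjusted p = 0.297 and 0.303). The 3 electron transfer genes Etfa, Etfb and Etfdh had log2 differences between −0.44 and −0.22, with none called.

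Other standard target genes did not pass in KO. Cpt1a stood at 69.4, 111 and 97.0 FPKM in KO control and at 80.6, 64.5, 98.5 and 51.5 FPKM in KO ethanol (log2 difference −0.34, limma adjusted p = 0.368). Ehhadh had a log2 difference of −0.53 (adjusted p = 0.578). Cyp4a14 stood at 152, 466 and 17.4 FPKM in KO control and at 426, 89.8, 440 and 82.7 FPKM in KO ethanol, with wide overlap (log2 difference 0.83, SE 1.51, limma adjusted p = 0.786). Cyp4a10 had a log2 difference of 1.13 (adjusted p = 0.555). Pdk4 stood at 2.62, 1.97 and 0.745 FPKM in KO control and at 15.2, 3.60, 4.74 and 1.71 FPKM in KO ethanol, where KO ethanol 1 alone was over 5 FPKM (log2 difference 1.13, adjusted p = 0.329).

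**Figure D3:**
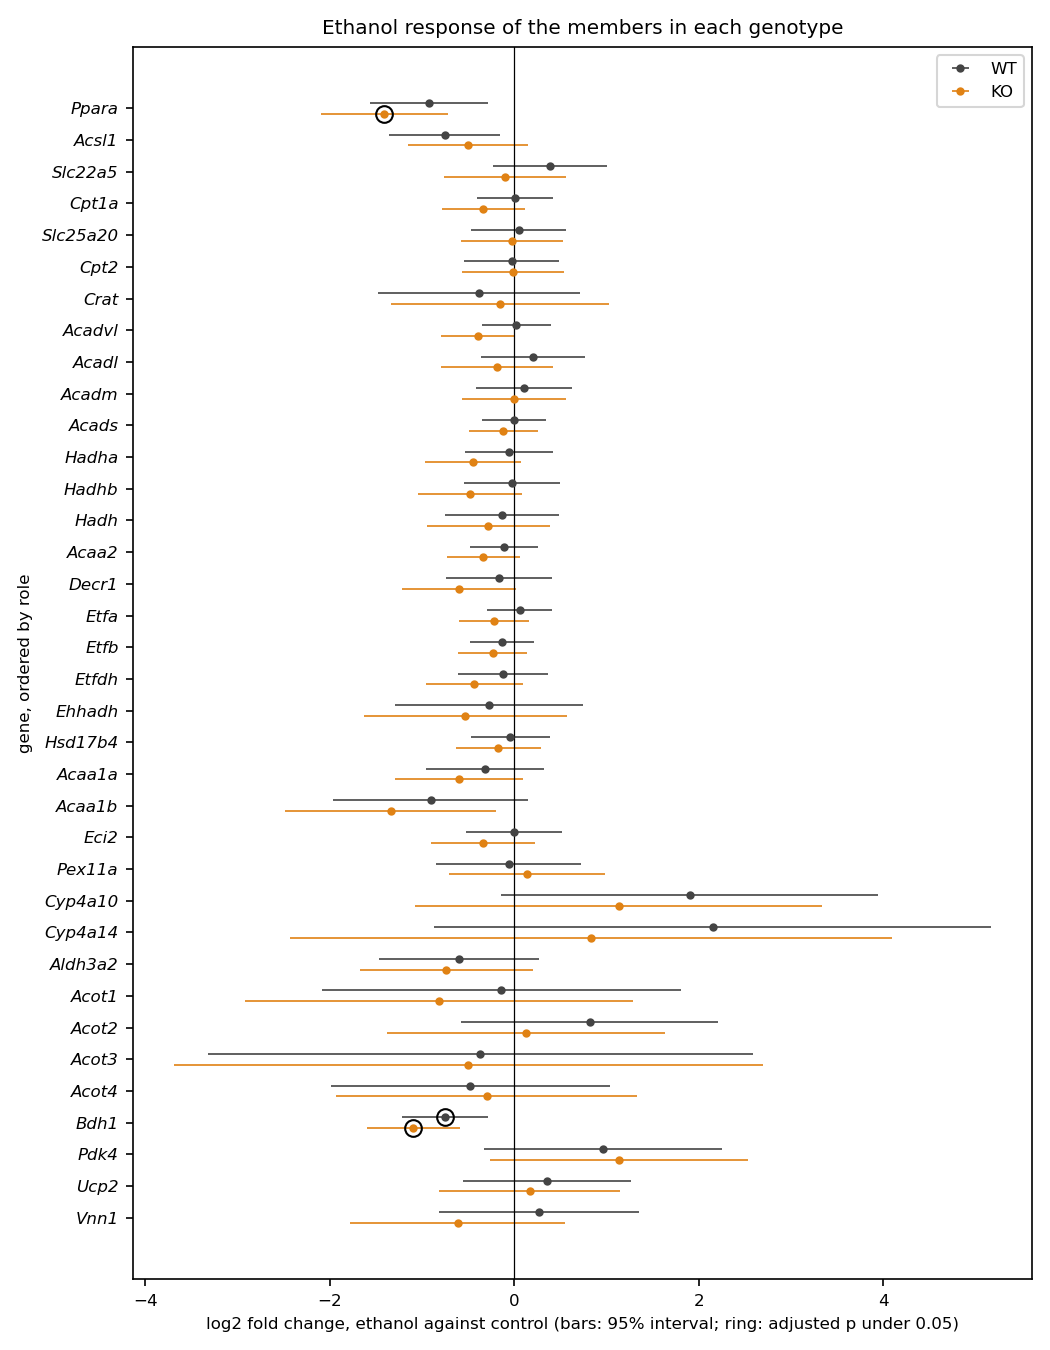
Log2 fold change on ethanol of each of the 36 genes in WT (grey) and in KO (orange), with 95% intervals from limma; rings mark genes with an adjusted p under 0.05. Ppara and Bdh1 lie left of 0 in both genotypes, at −0.93 and −0.76 in WT and −1.41 and −1.10 in KO, and the widest intervals belong to the Cyp4a and Acot genes.

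The knockout itself went with no call among the 36 genes on either diet. On the control diet 0 of 36 were called, beside 0.181% of all genes, and 0 of 36 had an unadjusted p under 0.05 in limma, beside 4.23% of all genes. On the ethanol diet 0 of 36 were called, beside 0.101% of all genes, and 0 of 36 had an unadjusted p under 0.05, beside 5% of all genes. Ppara differed between KO and WT by 0.14 on the log2 scale on the control diet (95% interval −0.55 to 0.83) and by −0.34 on the ethanol diet (−0.98 to 0.30). Bdh1 differed by 0.31 on the control diet (95% interval −0.19 to 0.81) and by −0.03 on the ethanol diet (−0.50 to 0.43). These intervals leave room for differences of either sign.

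On the control diet the lowest unadjusted p belonged to Hadhb, with a log2 difference of 0.39 (95% interval −0.17 to 0.96), followed by Bdh1, Hadha at 0.28 and Eci2, a peroxisomal enoyl-CoA isomerase, at 0.28. On the ethanol diet it belonged to Acsl1, with a log2 difference of 0.51 (95% interval −0.09 to 1.11). Acsl1 stood at 101, 85.2, 74.5 and 154 FPKM in WT ethanol and at 178, 102, 190 and 120 FPKM in KO ethanol. The KO values were higher on average and the groups overlapped. Acadvl followed at −0.28, Acaa1b at −0.67 and Vnn1, a pantetheinase, at −0.61. Cpt1a, Ehhadh, Cyp4a10, Cyp4a14 and Pdk4 had unadjusted p between 0.313 and 0.730 on the control diet and between 0.427 and 0.980 on the ethanol diet.

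The response to ethanol was not shown to differ between the genotypes. The interaction, the KO response minus the WT response, gave 0 of 36 calls in limma beside 0 of all 13840 genes, where 553 genes and 0 of the 36 had an unadjusted p under 0.05. The estimate was below 0 for 30 of the 36 genes, with a median of −0.28 against −0.05 for all genes. Under rescaling to a common sum the median of the 36 was 0.18 and that of all genes 0.31, so both medians moved above 0 and that of the 36 was again the lower. Without KO control 2 the median of the 36 was −0.10. It was −0.48 for Ppara (95% interval −1.42 to 0.46) and −0.34 for Bdh1 (−1.03 to 0.35). The lowest unadjusted p was that of Acadvl, at −0.42 (−0.97 to 0.13). With the term for Xist-high libraries the median was −0.10 against −0.02, and 15 of the 36 estimates were above 0.

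The thioesterase, Cyp4a and carnitine acetyltransferase genes followed the Xist class of the library. In the fit with 4 group means and a term for Xist-high libraries, 10 of the 36 genes were higher in Xist-high libraries and 0 lower, beside 4.93% of all genes called (3.48% higher and 1.46% lower). All 36 coefficients were above 0, with a median log2 difference of 0.39 against 0.05 for all genes, and 34 were above 0 under median-ratio scaling or with library weights. The 10 genes were Acot1, Acot2, Acot3, Acot4, Cyp4a10, Cyp4a14, Crat, Vnn1, Acadl and Ehhadh. The comparison was added after the data had been seen. Without WT control 1 the count was 6 (Acot4, Cyp4a10, Acadl and Ehhadh were lost). In that fit 314 of all 13840 genes were called, against 683 in the full fit. Over the 15 fits leaving out 1 library the count for the 36 genes ran from 6 to 11.

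Crat, which moves acetyl groups between carnitine and coenzyme A, had the lowest p (log2 difference 1.24, SE 0.20, limma adjusted p = 0.00467). It stood at 23.5 and 17.9 FPKM in the Xist-high and at 7.01 and 7.76 FPKM in the Y-expressing WT control libraries. In KO ethanol the Xist-high library held 24.6 FPKM, and the other 3 held 12.9, 8.16 and 7.40 FPKM. Within each of the 4 groups the Xist-high libraries of Crat were above the Y-expressing ones.

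Acot3, a peroxisomal acyl-CoA thioesterase, separated the classes over all 15 libraries, the only one of the 36 genes to do so. The share of all genes that separate the classes in this way was not counted. It stood at 48.3, 40.7, 9.24, 40.8, 7.25, 73.2 and 35.9 FPKM in the 7 Xist-high libraries, WT before KO and, within each, control before ethanol. In the Y-expressing libraries it stood at 0.556, 2.34, 6.50, 0.197, 1.93, 5.75, 2.89 and 4.63 FPKM in the same order. The log2 difference was 3.29 (SE 0.56, limma adjusted p = 0.00602). WT ethanol 2 and KO control 1 were the low libraries of the Xist-high class, close to WT ethanol 1.

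The other thioesterases, whose enzymes release free fatty acids from coenzyme A, moved the same way. The log2 differences were 2.07 for the cytosolic Acot1 (SE 0.41, limma adjusted p = 0.0149), 1.52 for the mitochondrial Acot2 (SE 0.28, adjusted p = 0.00969) and 1.58 for the peroxisomal Acot4 (SE 0.33, adjusted p = 0.0187). Acot1 and Acot2 are near-identical copies, as are parts of Acot3 and Acot4, so reads may be shared among them and their single levels are uncertain. Cyp4a14 differed by 3.29 (SE 0.60, adjusted p = 0.00952) and Cyp4a10 by 2.14 (SE 0.44, adjusted p = 0.0182). On the control diet Cyp4a14 stood between 152 and 466 FPKM in the 4 Xist-high and between 3.86 and 17.4 FPKM in the 3 Y-expressing libraries. On the ethanol diet it stood between 407 and 534 FPKM in the 3 Xist-high and between 23.3 and 426 FPKM in the 5 Y-expressing libraries, where KO ethanol 1 alone reached into the upper range.

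By ranges, 12 of the 36 genes had all Xist-high above all Y-expressing control libraries and 1, Acads, below, orders that 9.49% and 9.77% of all genes showed. On ethanol, 19 of the 36 were above and 0 below, beside 9.26% and 1.77% of all genes. The 19 included Acaa1a, Acaa1b, Acaa2, Acads, Acadvl, Cpt1a, Decr1, Hadh, Hadha, Hadhb and Hsd17b4, which overlapped or, for Acads, were reversed on the control diet. Ppara and Bdh1 overlapped between the classes on both diets, with log2 differences of 0.37 and 0.28 that were not called.

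**Figure D4:**
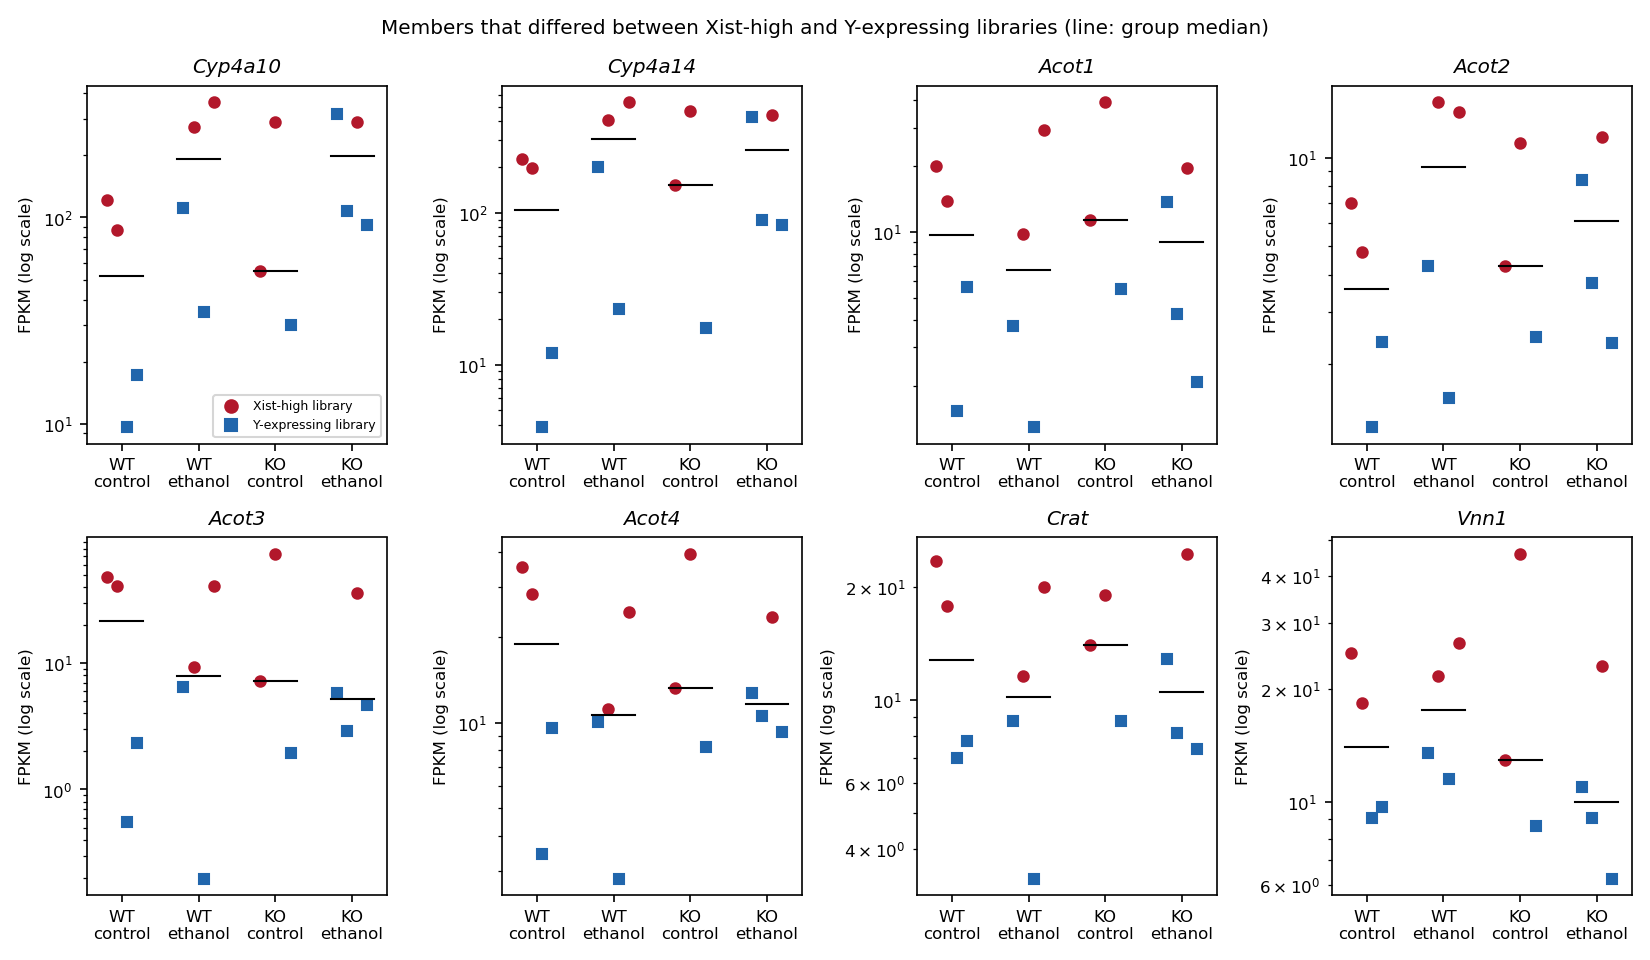
FPKM on a log scale of 8 of the genes called between the classes, in every library by group, with red circles for Xist-high and blue squares for Y-expressing libraries and lines for group medians. Within each group the Xist-high libraries lie above the Y-expressing ones, with the exception of KO ethanol 1 for Cyp4a10 (318 against 290 FPKM).

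Split by class, the ethanol response of the pathway was called for 10 genes in Y-expressing and for 0 in Xist-high livers, and the difference between the classes was not called for any of the 36. With both genotypes together and a genotype term, a fit added after the data had been seen, 2 of the 36 genes were higher and 8 lower on ethanol among the 8 Y-expressing libraries (3 control, 5 ethanol), beside 17.3% of all genes called (4.54% higher and 12.8% lower). The higher genes were Cyp4a14 and Cyp4a10. The lower genes were Bdh1, Ppara, the thiolases Acaa1b, Acaa1a and Acaa2, the ubiquinone oxidoreductase Etfdh, Acsl1 and Acads. In the 7 Xist-high libraries (4 control, 3 ethanol) 0 of 36 were called, beside 3.22% of all genes. An unadjusted p under 0.05 in limma was found there for 6 of the 36, beside 2668 of all 13840 genes. The 3 Y-expressing controls carry much of the 10 calls in Y-expressing libraries. Without KO control 3 that count was 2, and without WT control 4 it was 5. It ran from 2 to 12 when each library was left out. It was 5 under median-ratio scaling and 3 under rescaling to a common sum. Median-ratio scaling raised the median of all genes by 0.11, and the share of higher genes among all calls was 26.2% without and 50.2% with it.

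Bdh1 stood between 45.3 and 61.1 FPKM in the Y-expressing controls and between 20.9 and 34.0 FPKM in the Y-expressing ethanol libraries (log2 difference −1.09, SE 0.19, limma adjusted p = 0.00266). In Xist-high libraries it stood between 48.9 and 79.9 FPKM on control and between 32.3 and 43.8 FPKM on ethanol (−0.60, SE 0.20, adjusted p = 0.117). Ethanol libraries were thus lower without overlap in both classes. Ppara stood between 29.8 and 48.9 FPKM in the Y-expressing controls and between 8.82 and 21.6 FPKM on ethanol (−1.31, SE 0.28, adjusted p = 0.00804). In Xist-high libraries Ppara stood between 37.0 and 55.2 FPKM on control and between 20.0 and 29.8 FPKM on ethanol (−0.82, SE 0.29, adjusted p = 0.149), also without overlap. Groups ordered this way were found for 17.5% of all genes in Y-expressing and 10.5% in Xist-high libraries.

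Cyp4a14 stood at 3.86, 11.8 and 17.4 FPKM in the Y-expressing controls and at 201, 23.3, 426, 89.8 and 82.7 FPKM in the Y-expressing ethanol libraries, all of them higher (log2 difference 3.21, SE 0.72, limma adjusted p = 0.0103). Cyp4a10 stood at 9.62, 17.2 and 30.2 FPKM in the Y-expressing controls and between 34.8 and 318 FPKM on ethanol (2.34, SE 0.59, adjusted p = 0.0173). The omega-hydroxylases and the receptor gene thus had opposite directions in the same livers. Without KO control 3 the calls of Ppara and Cyp4a10 ended, and without WT control 3 that of Cyp4a10 ended. In Xist-high libraries the log2 differences were 1.06 for Cyp4a14 (SE 0.74, adjusted p = 0.477) and 1.53 for Cyp4a10 (SE 0.61, adjusted p = 0.189).

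Acaa1b stood between 244 and 391 FPKM in the Y-expressing controls and between 46.2 and 128 FPKM on ethanol (log2 difference −1.71, SE 0.39, limma adjusted p = 0.0119). In Xist-high libraries it stood between 127 and 420 FPKM on control and between 242 and 265 FPKM on ethanol, inside the control range. Acads stood between 40.4 and 45.2 FPKM in the Y-expressing controls and between 29.5 and 38.6 FPKM on ethanol (−0.37, SE 0.12, adjusted p = 0.0456). In Xist-high libraries it stood between 30.6 and 40.4 FPKM on control and between 40.9 and 43.6 FPKM on ethanol (0.29, SE 0.12, adjusted p = 0.201). The difference of the 2 responses was itself tested. It was called for 0 of the 36 genes, beside 0.0217% of all genes. An unadjusted p under 0.05 in limma was found for 8 of the 36, beside 1433 of all 13840 genes. Acads had the lowest adjusted p, 0.197, at −0.66 (95% interval −1.03 to −0.30), so a different response in the classes was not shown. By library, 7 of the 36 genes had every Y-expressing ethanol library below the mean of its class on control and every Xist-high ethanol library above its own, beside 2.53% of all genes.

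**Figure D5:**
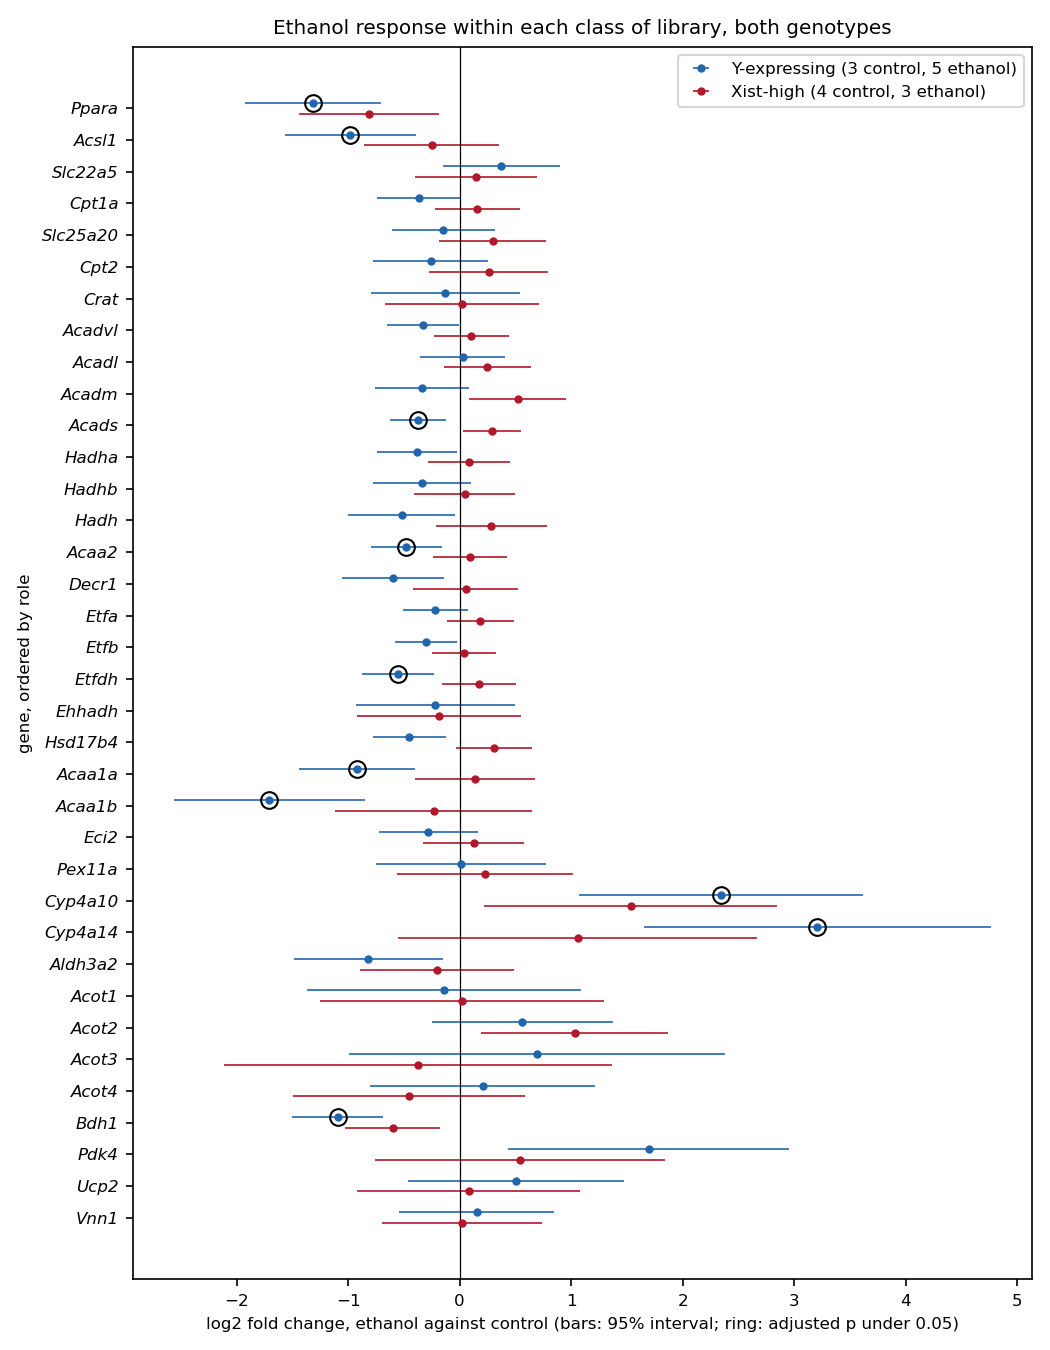
Log2 fold change on ethanol of each of the 36 genes within Y-expressing (blue) and within Xist-high (red) libraries, both genotypes together, with 95% intervals from limma; rings mark genes with an adjusted p under 0.05. The 10 rings are all blue, Ppara and Bdh1 lie left of 0 in both classes, and most mitochondrial genes lie left of 0 in blue and at or right of 0 in red.

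Among wider lists of the pathway, a few transport and storage genes changed on ethanol in both genotypes, while no receptor partner was called. Of 16 PPAR alpha partners and co-regulators, 0 were called in any of the 5 comparisons; the lowest p in WT was that of Hnf4a, a hepatocyte nuclear receptor, with a log2 difference of 0.44 (limma adjusted p = 0.0993). In KO it was that of Lpin1, a co-activator and phosphatidate phosphatase, at 1.39 (adjusted p = 0.200). Of 22 tested further genes of mitochondrial fatty acid oxidation, 0 were called in either genotype. Of 28 tested secreted and other targets, 1 was higher and 3 lower in WT, and 1 was higher and 2 lower in KO. All genes tested were called at 7.7% in WT (3.09% higher, 4.62% lower) and 4.13% in KO (1.4% higher, 2.72% lower).

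Fabp1, the liver fatty acid-binding protein, stood at 4439, 3598, 2761 and 4057 FPKM in WT control and at 857, 2201, 1830 and 1389 FPKM in WT ethanol. It fell by 1.30 on the log2 scale (SE 0.34, limma adjusted p = 0.0363). In KO it stood at 3380, 4577 and 4522 FPKM on control and at 855, 568, 1686 and 679 FPKM on ethanol, and fell by 2.25 (SE 0.37, adjusted p = 0.00946). The ethanol libraries of Fabp1 lay below all controls in both genotypes. Cidec, a lipid droplet protein, rose by 2.35 in WT (SE 0.42, adjusted p = 0.00779) and by 2.58 in KO (SE 0.45, adjusted p = 0.0110), from at most 1.62 FPKM in any control library to at least 3.41 FPKM in any ethanol library. Cyp4f14, another fatty acid hydroxylase family member, fell by 0.94 in WT (adjusted p = 0.0114) and by 0.92 in KO (adjusted p = 0.0274). Acsl3, a further acyl-CoA synthetase, fell by 0.86 in WT (adjusted p = 0.0434) and was not called in KO; the interaction was not called (adjusted p = 0.973).

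Of 40 further peroxisomal genes, 0 were higher and 2 lower in each genotype, near the 4.62% of all genes called lower in WT and the 2.72% in KO. Crot, the peroxisomal carnitine octanoyltransferase, stood at 136, 139, 113 and 132 FPKM in WT control and at 57.8, 97.3, 58.9 and 70.6 FPKM in WT ethanol, a log2 difference of −0.89 (SE 0.22, limma adjusted p = 0.0279). In KO it stood at 145, 152 and 115 FPKM on control and at 49.0, 37.8, 79.2 and 44.6 FPKM on ethanol (−1.41, SE 0.23, adjusted p = 0.00954). Pex6, which recycles the receptor that imports peroxisomal enzymes, fell by 0.93 in WT (adjusted p = 0.00927) and by 0.95 in KO (adjusted p = 0.0192). Of 7 tested further ketone body genes, 1 was higher in WT, where 3.09% of all genes were, and 0 were called in KO. Slc16a6, a transporter known to export ketone bodies from zebrafish liver, rose by 1.52 in WT (SE 0.36, adjusted p = 0.0246), from between 1.58 and 2.84 FPKM to between 3.41 and 14.7 FPKM; its interaction was not called (adjusted p = 1).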

How the data were processed

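RNA of mouse liver was measured in 15 libraries. Gene and isoform levels are FPKM as deposited by the authors; per the submitters' processing notes TopHat, Cufflinks and Cuffdiff and the build mm9 were used, with no versions given. Positions of all 36 genes overlap RefSeq genes of GRCm38.p6, and for 25 both ends lie within 10 bases, so positions are given as GRCm38. No counts or depths are listed, so no count model was used. Fragment numbers were estimated from the lowest values of long transcripts of 1 isoform and are approximate.

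Groups follow the sample titles. A gene was tested if 3 or more libraries held 1 FPKM or more. Log2(FPKM + 1) was fitted across all genes with limma 3.58.1 (R 4.3.3; lmFit, eBayes with a trend) as 4 group means with 5 two-sided contrasts. The added 1 understates fold changes of low genes. Calls are Benjamini-Hochberg adjusted p under 0.05 over all 13840 genes. The fit was tested on simulated data. Libraries over 10 FPKM of Xist were called Xist-high. A term for them was one of the alternatives planned; the fit by class and diet, the reading of the Xist coefficient and the search with 1 mismatch were added after seeing the data. Replicates are libraries of separate mice per the labels' protocols. The members and lists were chosen with earlier results of these data known. Named genes were the called members, further members with the lowest p up to 8 a comparison, Ppara, Cpt1a, Ehhadh, Cyp4a10, Cyp4a14, Pdk4 and Bdh1 in every comparison, those of widest range, and the called genes of each wider list up to 4; any others named in the text were chosen after their values were seen. Results on an item withheld for evaluation are left out. Alternatives were other pseudocounts, filters, scalings, spread models and library weights, a fit of the compared groups alone, a block by replicate number, the other grouping of WT ethanol replicate 4, and leaving out each library. Python 3.11.15 with pandas 2.3.3, numpy 2.4.6, matplotlib 3.10.9 and Biopython 1.88 made the tables, plots and alignments.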

Additional observations from a re-analysis of the deposited data

Results flagged for a closer look

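Acot3 in KO ethanol 3 stood at 35.89 FPKM, far above the other 3 libraries of its group (2.887 to 5.751 FPKM). That library is the only Xist-high one of KO ethanol, and Acot3 was high in Xist-high libraries of the other groups too. The part of the class in this value was not tested. Ucp2, a mitochondrial carrier of the uncoupling protein family, stood at 40.52 FPKM in KO ethanol 4, against 12.09 to 16.15 FPKM in the rest of the group. Ucp2 was also high in KO control 1, at 44.3 FPKM. The 8 Kupffer cell markers, of which none was at 0 throughout, summed to 281.5 FPKM in KO control 1 and 87.23 FPKM in KO ethanol 4, and ran from 24.74 to 157.6 FPKM in the other libraries. The sum of 157.6 FPKM was that of WT control 3, where Ucp2 stood at 14.28 FPKM. KO ethanol 3 had a sum of 81.48 FPKM, with Ucp2 at 15.75 FPKM. The part of these markers in Ucp2 was not tested. In all, 108 sets of 4 libraries were examined and 2 stood out in this way; chance alone gives about 1 in 20.

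For 7 genes every Y-expressing ethanol library lay on one side of the mean of the Y-expressing controls and every Xist-high ethanol library on the other side of its own mean, and 2.53% of all 13840 genes showed this pattern in the direction of these 7. The ethanol response in Y-expressing minus that in Xist-high libraries, as a difference of log2 means, was −1.094 for Acaa1a, −0.5455 for Acaa2, −0.669 for Acads, −0.4999 for Cpt1a, −0.6965 for Etfdh, −0.7925 for Hadh and −0.7673 for Hsd17b4. In each the Y-expressing response was below 0 and the Xist-high response above 0. For Hadh the values were −0.5114 and 0.2812, and for Hsd17b4, the peroxisomal D-bifunctional enzyme, −0.4582 and 0.3092. In the limma test of the difference itself none of the 7 was called, and Acads had the lowest adjusted p, 0.197.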

How the results depend on the processing

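The direction of Ppara and Bdh1 on ethanol was below 0 in both genotypes under each alternative run and with each library left out, and 0 of the 36 genes were called between genotypes or in the interaction under any of them. The counts of called genes did depend on settings, and the causes were not tested. On ethanol in WT (1 called) the count was 0 with log2(FPKM + 0.1), with no filter on low values, with median-ratio scaling and with rescaling to a common sum. It was 2 with quantile normalization, with library weights, with WT ethanol replicate 4 placed with KO ethanol and with the term for Xist-high libraries. With only the groups compared it was 1, Ppara in place of Bdh1. Leaving out each library gave 0 to 2. On ethanol in KO (2 called) it was 1 with no filter, 0 with a common sum, 0 with only the groups compared and 13 with library weights (1 higher, 12 lower), and leaving out each library gave 0 to 2. The calls over all genes also changed widely between settings, as given below. These counts alone therefore do not set the 36 genes apart. The interaction median was 0.179 with a common sum, which moved the median of all genes in that contrast by 0.353.

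With the replicate number as a replicate block, 0 genes were called in WT and 1 in KO. Correlations of same-numbered deviations ran from −0.06 to 0.44 in WT (2 of 4 over 0.1) and from −0.25 to −0.07 in KO. Between KO and WT they ran from −0.03 to 0.29 on the control diet (2 of 3 over 0.1) and from −0.33 to 0.18 on the ethanol diet (1 of 4). Some same-numbered libraries shared an Xist class and others did not, so these values do not settle whether the numbers pair the libraries.

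For Y-expressing libraries (10 called) the count was 5 with median-ratio scaling and 3 with a common sum, and leaving out each library gave 2 to 12. For Xist-high libraries (0 called) it was 3 with library weights. Between the classes (10 called) the count ran from 6 to 11 with each library left out, while calls over all genes ran from 314 to 855.

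Over all genes, calls ran from 492 to 2248 in WT (1066 as reported) and from 97 to 4140 in KO (571) over the alternatives, from 4 to 669 for KO against WT on the control diet (25) and from 0 to 22 on the ethanol diet (14). Among calls on ethanol in KO, 34% were higher, against 52.2% after quantile normalization, 59.7% after median-ratio scaling and 94.6% after rescaling to a common sum, which raised the median of all genes by 0.262. With only the groups compared it was 57.7%. Values here carry no counts, so precision at low levels, as for Acot3 and Pdk4, is limited and not known exactly.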
